A study of Mus musculus with 6 samples.

Results

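The genes described here are 9 genes of bone-forming cells: Phex, Dmp1, Mepe, Ibsp, Sp7, Bglap, Sost, Smpd3 and Ifitm5. They were followed in the cochlear lateral wall of mice, which lies against the bone of the ear capsule. The genes were selected on earlier results of these same arrays, in which several of them were lower in old tissue. Their differences between the ages are therefore given as a description, with no p-value and no call for a single gene. How many of them passed the test run over the whole array is counted, also under other settings, and nothing is read from these counts. Of the 9 genes, 8 had at least 1 probe set that the array annotation assigns to that gene alone, with 15 probe sets among 45037 in all. Bglap, which encodes osteocalcin, had no such probe set, and its signal is not analysed here.

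Bone is laid down by osteoblasts, some of which become buried in the matrix as osteocytes and stay linked to each other by fine processes. Osteoblasts secrete a collagen matrix, and both cell types secrete acidic proteins that govern how calcium phosphate is deposited in it. Osteocytes also signal to other cells, through sclerostin to the Wnt pathway and through phosphate-regulating proteins to the kidney. The cochlea is encased in such bone, the otic capsule, and the spiral ligament of the lateral wall is attached to its inner face.

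Old CBA/CaJ mice, aged 1.5 years, were compared with young adults of the same strain, aged 1 to 3 months. All came from a colony kept under low noise, both sexes were used, and the labels give no mutation, transgene or drug for either age. The lateral wall was dissected from the inner ear, and its RNA was hybridised to 1-colour Affymetrix arrays, with 3 arrays from old and 3 from young mice. Nothing in the labels ties the 3 samples of either age to separate animals or to pools, so p-values measure only the spread between these samples, which may be technical. All values are log2 signals as the authors deposited them, in which a step of 1 is a doubling, and all differences are old minus young.

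The tissue label was checked against markers. Each of 10 stria vascularis and 8 spiral ligament genes lay above the median probe set signal of 6.28, with means over the 6 arrays from 10.85 for Pou3f4 to 14.41 for Coch. Means of 5 hair cell genes lay between 3.72 for Pou4f3 and 6.31 for Otof. Young array 2 stood apart in Xist, which female cells transcribe, with a signal of 6.06 where the other arrays had 11.95 to 12.65. The difference between the 3′ and 5′ control probe sets of Gapdh, a measure of RNA integrity, was 1.26 to 1.45 on old and 1.07 to 1.25 on young arrays. For Actb it was 1.39 to 1.84 on old and 1.46 to 1.60 on young arrays. An exact permutation test of the ages (2-sided) gave p = 0.1 for Gapdh and p = 0.4 for Actb, and 3 against 3 arrays cannot give a p below 0.1. The part of RNA integrity in the differences below was not tested.

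The matrix proteins Dmp1, Mepe and Ibsp had all old values below all young values, with mean differences of -1.10 to -2.25 on the log2 scale. So were Phex and Sost, while Sp7, the transcription factor of the group, overlapped between the ages. Taking the brightest probe set of each gene, 7 of the 8 measured genes had all 3 old values below all 3 young values, and 11 of the 15 probe sets did. Over all probe sets, 11.3% showed that order, and the share over all genes by brightest probe set was not computed. The groups of Ifitm5, Sost and Ibsp were only 0.05, 0.06 and 0.07 apart. Of the 15 probe sets, 7 passed a limma adjusted p of 0.05, all lower in old tissue, where 2.84% of all probe sets passed in that direction. Read by the brightest probe set, 4 of 8 genes passed, against 2.33% of 18193 genes called lower in old tissue. The count of genes was 2 without young array 3, 3 without old array 1 or old array 3, and 6 without old array 2. Because the genes were picked with this contrast known, nothing is read from these shares. In bulk tissue, fewer bone cells in a sample and less RNA per bone cell cannot be told apart.

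**Figure D1:**
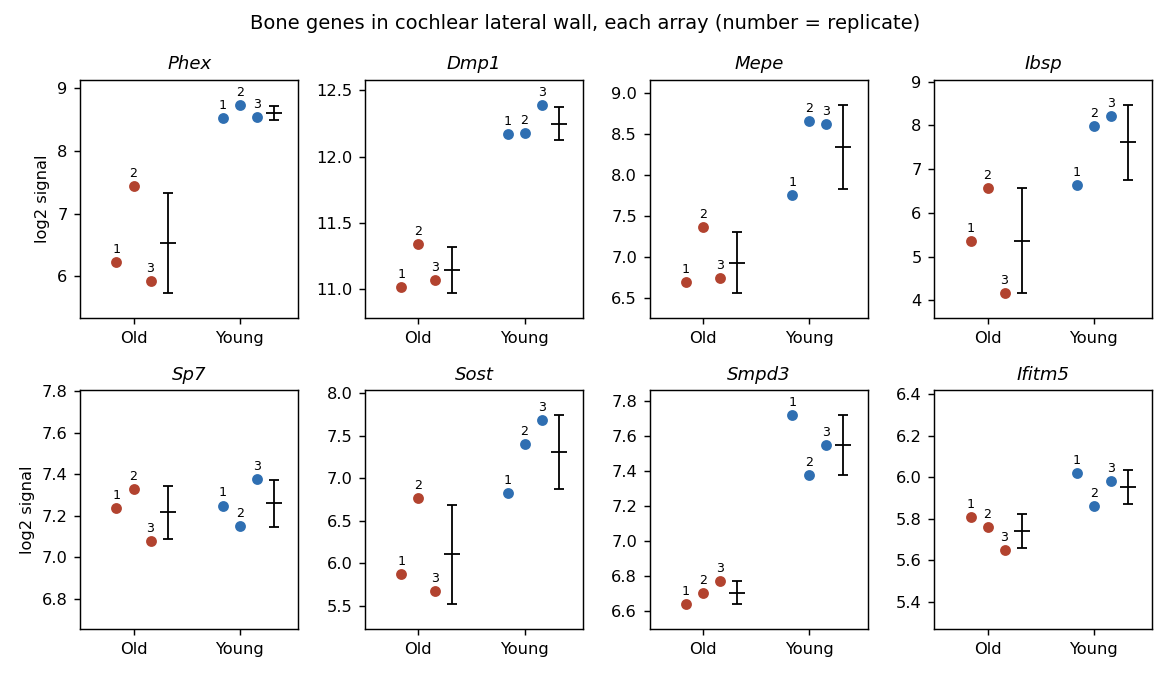
Log2 signal of the brightest probe set of each of the 8 measured genes on every array, old at left and young at right, with the replicate number above each point. The bar beside each group is the mean ± SD of 3 arrays, and each panel has its own vertical scale. Old and young points overlap for Sp7 and do not overlap for the other 7 genes.

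Dmp1, Mepe and Ibsp encode secreted acidic phosphoproteins of mineralised tissue that belong to the SIBLING family, and their genes lie side by side on chromosome 5. Dmp1, which osteocytes make and which promotes mineralisation, had 11.02, 11.34 and 11.07 on old arrays 1 to 3, against 12.17, 12.18 and 12.39 on young arrays 1 to 3. All old values lay at least 0.83 below the lowest young value. The means were 11.14 ± 0.17 in old and 12.25 ± 0.12 in young tissue (SD, n = 3 each), a difference of -1.10 ± 0.11 (standard error). Its other probe sets gave similar differences, -1.27 ± 0.17 from the same transcript record and -1.18 ± 0.10 from another record. The difference was -1.14 without young array 2.

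Mepe, whose protein carries a peptide that binds mineral and inhibits its growth, had 6.69, 7.36 and 6.74 on old arrays, against 7.75, 8.66 and 8.62 on young arrays. The closest values were those of old array 2 and young array 1, which were 0.39 apart. The difference was -1.41 ± 0.26. Over all arrays left out in turn it ranged from -1.71 without young array 1 to -1.25 without young array 2.

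Ibsp encodes bone sialoprotein, an integrin-binding matrix protein that nucleates mineral. It had 5.36, 6.56 and 4.16 on old arrays, against 6.63, 7.99 and 8.22 on young arrays. Its values spread more than those of any other gene in the group, over 2.40 log2 units among old and 1.59 among young arrays, and old array 2 lay only 0.07 below young array 1. The difference was -2.25 ± 0.59, the largest of the 8 and also the least precise. It ranged from -2.85 without old array 2 to -1.65 without old array 3. A dimmer Ibsp probe set, from the same transcript record, had 4.82, 5.29 and 5.0 on old arrays, against 5.59, 6.19 and 5.93 on young arrays. That difference, -0.87 ± 0.17, was smaller, and the mean of both probe sets was -1.56.

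The 5 neighbours of these genes on either side, in the chromosomal order of RefSeq, were read on the same arrays where measured. Spp1 and Pkd2, which lie between Mepe and Thoc2l, had no probe set assigned to that gene alone, nor had Gm17660 and Gm31255. Whether Spp1, next to Mepe, differed between the ages could therefore not be read. Dspp, a SIBLING gene of dentin that lies next to Dmp1, had 4.51, 4.49 and 4.68 on old arrays, against 4.67, 4.61 and 4.38 on young arrays, and the groups overlapped. Its difference was 0.01 ± 0.10 (limma adjusted p = 0.983), at a signal below the overall median. Of the other measured neighbours, Sparcl1, Nudt9 and Hsd17b11 on the side of Dspp had differences of -0.09 ± 0.07, -0.07 ± 0.08 and 0.04 ± 0.07, with limma adjusted p of 0.610, 0.732 and 0.848. On the side of Mepe, Thoc2l and Zfp33b had -0.11 ± 0.14 and -0.08 ± 0.11, with limma adjusted p of 0.761 and 0.783. The 6 measured neighbours thus had differences between -0.11 and 0.04, none of which passed. Dmp1, Ibsp and Mepe were selected on earlier results of these arrays and the neighbours by position, so nothing is read from this contrast.

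**Figure D2:**
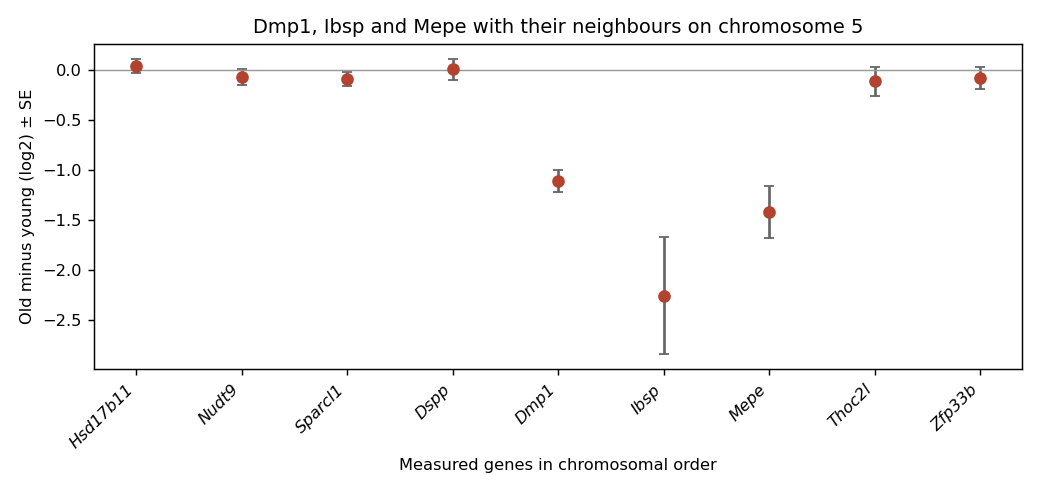
Difference in log2 signal between old and young tissue for Dmp1, Ibsp, Mepe and the measured protein-coding genes among the 5 on either side, in chromosomal order. Points are the limma estimates and bars are standard errors from 3 arrays per age. Dmp1, Ibsp and Mepe, which were selected on earlier results of these arrays, lie between -1.10 and -2.25. The other points, selected by position, lie near 0. Spp1 and Pkd2, which lie between Mepe and Thoc2l, were not measured.

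Promoter sequences are shown for these SIBLING genes, Phex and Sost because their signals went up and down together between arrays (described further on). RefSeq (GRCm38.p6, from C57BL/6J and not CBA/CaJ mice) gave a window of 250 bases before to 50 bases after the transcription start for 7 of the 9 genes. Dmp1 has 2 such windows, and the one with matches to more motifs is shown. The windows are chr5:104202367-104202666 (plus strand) for Dmp1, chr5:104299037-104299336 (plus strand) for Ibsp, chr5:104325079-104325378 (plus strand) for Mepe, chrX:157415237-157415536 (minus strand) for Phex and chr11:101966966-101967265 (minus strand) for Sost. Capitals mark matches, on either strand, to the Runx core TGTGGT, to the CCAAT box CCAAT and to the TATA box TATAAA, and no match overlaps another.
Dmp1: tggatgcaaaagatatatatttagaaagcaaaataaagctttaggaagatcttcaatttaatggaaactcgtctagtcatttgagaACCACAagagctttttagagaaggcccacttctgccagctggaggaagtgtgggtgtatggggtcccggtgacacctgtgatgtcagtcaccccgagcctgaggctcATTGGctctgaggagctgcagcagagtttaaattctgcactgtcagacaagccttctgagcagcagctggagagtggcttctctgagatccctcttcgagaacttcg
Ibsp: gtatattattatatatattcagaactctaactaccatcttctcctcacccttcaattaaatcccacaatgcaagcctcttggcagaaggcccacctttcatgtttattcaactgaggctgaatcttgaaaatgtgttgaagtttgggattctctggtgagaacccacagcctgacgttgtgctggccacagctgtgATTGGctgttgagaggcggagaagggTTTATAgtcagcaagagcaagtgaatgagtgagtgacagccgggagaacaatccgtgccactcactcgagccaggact
Mepe: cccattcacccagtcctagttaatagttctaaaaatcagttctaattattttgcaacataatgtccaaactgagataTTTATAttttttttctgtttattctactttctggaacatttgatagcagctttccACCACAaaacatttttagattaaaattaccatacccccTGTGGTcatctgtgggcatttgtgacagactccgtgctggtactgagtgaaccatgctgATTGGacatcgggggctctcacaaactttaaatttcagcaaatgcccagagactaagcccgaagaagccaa
Phex: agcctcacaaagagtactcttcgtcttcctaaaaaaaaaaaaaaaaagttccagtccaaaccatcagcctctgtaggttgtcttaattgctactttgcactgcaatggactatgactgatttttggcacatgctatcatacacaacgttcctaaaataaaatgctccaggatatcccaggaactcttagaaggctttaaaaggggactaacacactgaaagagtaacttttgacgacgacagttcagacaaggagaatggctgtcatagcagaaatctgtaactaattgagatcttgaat
Sost: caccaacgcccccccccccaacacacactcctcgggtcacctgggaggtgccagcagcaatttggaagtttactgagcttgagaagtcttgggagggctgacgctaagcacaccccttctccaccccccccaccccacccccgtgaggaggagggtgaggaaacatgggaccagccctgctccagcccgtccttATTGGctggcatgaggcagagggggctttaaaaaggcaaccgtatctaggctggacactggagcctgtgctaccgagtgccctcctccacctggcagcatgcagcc
The Ibsp window has an inverted CCAAT box that begins 54 bases before the start and a reversed TATA box match 28 bases before it. The Sost window has an inverted CCAAT box 56 bases before the start, and the Dmp1 window shown has one 57 bases before it. The Mepe window has Runx core matches 118 and 80 bases before the start. A CCAAT match was present in 6 of the 8 windows of these genes and in 37.4% of all 32851 windows of the table. A Runx core match was present in 3 of 8 and in 16.8% of all windows, and a TATA match in 3 of 8 and in 13.6%. The 8 windows include both of Dmp1, each with a CCAAT match. They also include that of Bglap, which has a match to each of these motifs and whose signal was not measured. The Phex and Ifitm5 windows had no match to any of these motifs. A match is a description of letters and says nothing here about binding.

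Phex, an X-linked gene, encodes a membrane endopeptidase of osteoblasts and osteocytes that cleaves SIBLING-derived peptides, and its loss causes phosphate wasting. It had 6.22, 7.44 and 5.93 on old arrays, against 8.53, 8.74 and 8.55 on young arrays. The young values lay within 0.21 of each other, the old values were spread over 1.51, and the groups were 1.09 apart at the closest. The means were 6.53 ± 0.80 in old and 8.61 ± 0.12 in young tissue (SD, n = 3 each), with a difference of -2.08 ± 0.33 and a ratio of 0.237 old over young. The difference was -2.01 without young array 2 and -2.53 without old array 2. A second probe set, which the annotation ties to the same transcript record, was dim at 3.74, 3.82 and 3.61 on old and 3.85, 3.89 and 3.83 on young arrays, a difference of -0.13 ± 0.08. The mean of both was -1.10.

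Sost encodes sclerostin, which osteocytes secrete and which blocks Wnt co-receptors on osteoblasts. It had 5.87, 6.77 and 5.68 on old arrays, against 6.83, 7.40 and 7.68 on young arrays. Old array 2 and young array 1 were only 0.06 apart, so the groups barely separated. The difference was -1.20 ± 0.29, and -1.53 without old array 2. Its second probe set, from the same transcript record, at 4.31, 4.55 and 4.47 on old and 4.30, 4.24 and 4.48 on young arrays, overlapped between the ages and had a difference of 0.10 ± 0.10. With both averaged, the Sost difference was -0.55.

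Smpd3 encodes a neutral sphingomyelinase, which cleaves sphingomyelin to ceramide, and mice that lack it have poorly mineralised bone. Its brightest probe set had 6.64, 6.70 and 6.77 on old arrays, against 7.72, 7.38 and 7.55 on young arrays. The groups were 0.61 apart, with a difference of -0.85 ± 0.10. The other probe sets, both tied to another transcript record, overlapped between the ages, with differences of 0.07 ± 0.08 and -0.10 ± 0.10. Averaged over all 3 probe sets the difference was -0.29, so the Smpd3 value depends on which probe set is read.

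Ifitm5, also called Bril, encodes a small membrane protein of osteoblasts that is mutated in a form of brittle bone disease. Its only probe set had 5.81, 5.76 and 5.65 on old arrays, against 6.02, 5.86 and 5.98 on young arrays. The groups were 0.05 apart, the signal lay below the median of all probe sets, and the difference was -0.21 ± 0.08. Sp7 encodes osterix, a zinc finger factor that osteoblasts need to differentiate. It had 7.24, 7.33 and 7.08 on old arrays, against 7.25, 7.15 and 7.38 on young arrays, and these values interleaved. The Sp7 difference was -0.04 ± 0.10, and it changed sign, at 0.025 and 0.017, without old array 3 and without young array 3.

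**Figure D3:**
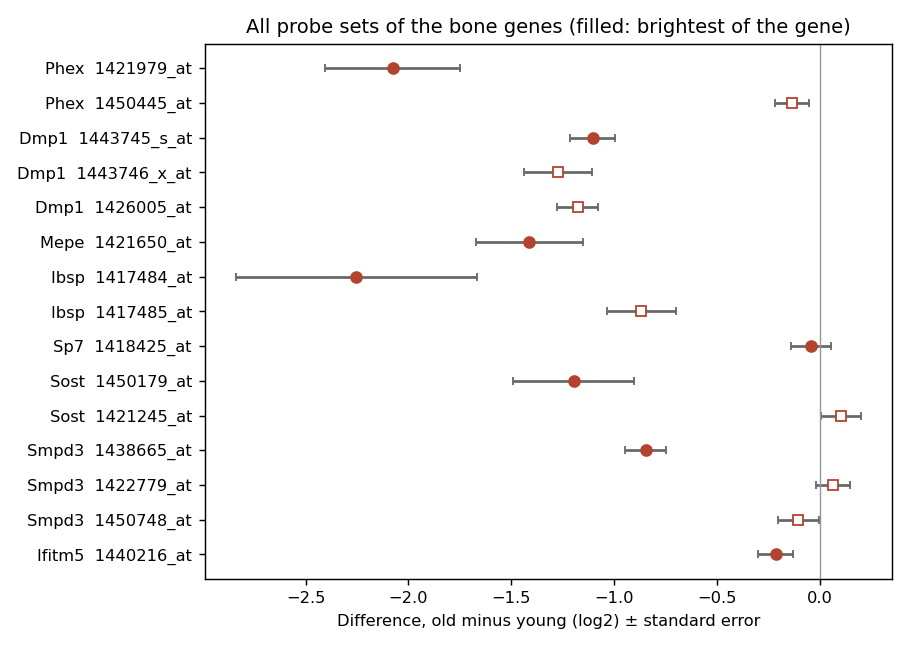
Difference in log2 signal between old and young tissue for all 15 probe sets, grouped by gene, with standard errors from limma (3 arrays per age). Filled circles are the brightest probe set of a gene and open squares the others. The 3 Dmp1 probe sets lie close together, whereas dimmer probe sets of Phex, Sost and Smpd3 lie near 0.

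Within an age, the signals of several of these genes went up and down together. Of the 3 old arrays, array 2 was highest for 6 of the 8 genes: Phex, Dmp1, Mepe, Ibsp, Sp7 and Sost. It exceeded the old mean by 1.20 for Ibsp, 0.91 for Phex, 0.66 for Sost, 0.43 for Mepe, 0.20 for Dmp1 and 0.11 for Sp7. Over all 18193 genes, 27.7% were highest on old array 2 among the old arrays. Of the 3 young arrays, array 1 was lowest for 5 genes, at 0.98 below the young mean for Ibsp, 0.59 for Mepe, 0.47 for Sost and 0.08 for Phex and for Dmp1. For Phex and Dmp1 the next young array was barely higher, at 8.55 against 8.53 and at 12.18 against 12.17. Over all genes, 38.4% were lowest on young array 1 among the young arrays. Smpd3 and Ifitm5 did not share this order and deviated from the mean of their age by at most 0.17. With 3 arrays per age, these orders are a description and the relation between genes within an age was not tested.

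**Figure D4:**
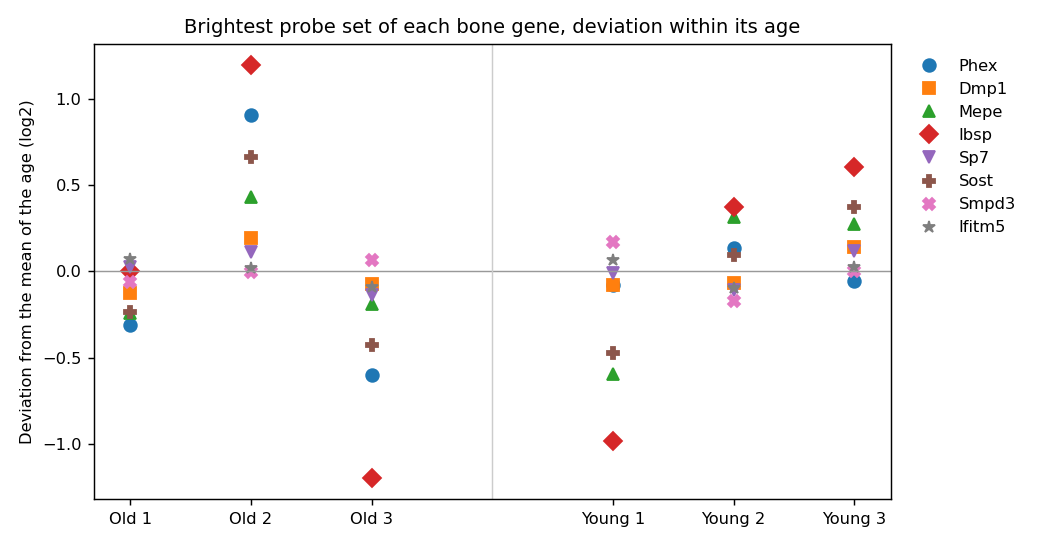
Deviation of each gene's brightest probe set from the mean of its age (log2), for each of the 3 old arrays at left and the 3 young arrays at right. Each symbol is 1 gene. Old array 2 lies above 0 for Ibsp, Phex, Sost and Mepe, and young array 1 lies below 0 for Ibsp, Mepe and Sost.

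Neutrophil and marrow genes, which mark the blood-forming cells that bone can hold, followed a like order. Of 14 measured marrow myeloid genes, 10 fell in old tissue and 0 rose. Over all genes, 2.33% were called lower in old tissue and 2.45% higher, and these shares stand beside the counts of every list below. The lists were written with earlier results of these data known, so nothing is read from their counts. The median difference of the marrow genes was -0.89, beside 0.03 over all genes. Of the 14, 9 were highest on old array 2 and 8 lowest on young array 1. The mean log2 level of the list was 6.01, 6.22 and 5.83 on old arrays, against 6.70, 7.04 and 7.15 on young arrays, and its summed signal on a linear scale was 965 to 1739 on old and 2533 to 3911 on young arrays. Mpo, the myeloperoxidase of granulocytes, fell by 1.27 (limma adjusted p = 0.00393), and Ngp, a neutrophil granule protein, fell by 1.62 (limma adjusted p = 0.00908, and 0.0544 without young array 3). The count of falling marrow genes was 1 without young array 3, 3 without old array 1 and 3 without old array 3. Log2 signals have no 0, so absence of these markers could not be read, and their part in the bone gene differences was not tested. Of 11 erythroid genes, 1 fell, the red cell anion exchanger Slc4a1, by 1.23 (limma adjusted p = 0.0219). With 1 array left out, it passed only without young array 2, and its adjusted p was 0.0510 to 0.0914 without any other array.

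Genes that act with the group in bone were also read. Of 14 measured genes of mineral formation and phosphate handling, 3 fell and 0 rose, with a median of -0.03. Omd, osteomodulin, a keratan sulphate proteoglycan of bone, had 9.79, 9.71 and 9.82 on old arrays, against 10.99, 10.82 and 10.64 on young arrays, and fell by 1.04 (limma adjusted p = 0.00230). Mgp, an inhibitor of calcification in cartilage and vessels, fell by 0.68 (limma adjusted p = 0.0115, and 0.0539 without young array 3). The third was the phosphate transporter gene Slc20a2, at -0.37 (limma adjusted p = 0.0465), named after its value was seen. The list had 1 falling gene, Omd, without young array 3. It had 2, Omd and Mgp, without young array 1 or any 1 of the old arrays. Slc20a2 thus passed in none of these settings. Alpl, the alkaline phosphatase of osteoblasts and also named after its value was seen, had 8.86, 8.38 and 8.31 on old arrays, against 8.20, 8.05 and 8.33 on young arrays. These groups overlapped, and the Alpl difference of 0.32 ± 0.15 did not pass (limma adjusted p = 0.284).

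For genes that make and cross-link type I collagen, the main fibre of bone and also of the spiral ligament, 6 of 22 measured genes fell and 0 rose, with a median of -0.17. Col1a2 had 8.87, 9.73 and 8.67 on old arrays, against 12.27, 11.45 and 11.62 on young arrays. Old array 2 was again the highest of the old arrays, but young array 1 was the highest of the young ones. Col1a2 fell by 2.69 (limma adjusted p = 0.00303), and Col5a2, a chain of type V collagen, fell by 1.33 (limma adjusted p = 0.00230). Col1a1, the other chain of type I collagen and named after its value was seen, had 6.12, 6.34 and 5.92 on old arrays, against 6.45, 5.96 and 6.91 on young arrays. These groups overlapped, and the Col1a1 difference of -0.31 ± 0.22 did not pass (limma adjusted p = 0.512). The Col1a1 signal averaged 6.28, at the median of all probe sets, where that of Col1a2 averaged 10.435. Whether the Col1a1 probe set responds as well as that of Col1a2 was not tested. Without single arrays, 4 to 6 genes of the list fell, with 4 on leaving out any array except young array 2. Of 17 measured upstream regulators of osteoblasts, 0 fell and 1 rose, with a median of 0.09. Smad5, a mediator of BMP signals, rose by 0.35 (limma adjusted p = 0.0403). Smad5 did not pass on leaving out any array except young array 2 (adjusted p up to 0.163), and its 3 probe sets averaged 0.09.

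Sclerostin acts on the Wnt pathway, and of 19 measured genes of that pathway, 1 fell and 0 rose, with a median of 0.01. The gene that fell was Sfrp4, a secreted Wnt antagonist, with 9.03, 9.05 and 9.01 on old arrays, against 9.72, 9.50 and 9.38 on young arrays. Its difference was -0.50 ± 0.10 (limma adjusted p = 0.0284), and it passed without young array 2 or young array 3 but not without any of the other arrays (adjusted p of 0.0555 to 0.119).

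Osteoblasts and osteocytes also signal to the cells that resorb bone. Of 16 measured genes of osteocytes and of these signals, 2 rose and 0 fell, where 2.45% of all genes were called higher in old tissue. Tnfsf11 encodes RANKL, the cytokine that osteoclasts need to form. It had 5.89, 6.14 and 6.11 on old arrays, against 5.05, 5.31 and 4.57 on young arrays, and rose by 1.07 (limma adjusted p = 0.0144, and 0.0668 without old array 3). Averaged over its 2 probe sets, the Tnfsf11 difference was smaller, 0.63 (limma adjusted p = 0.0167). Kcnk2, a stretch-sensitive potassium channel, rose by 1.34 (limma adjusted p = 0.00505). Tnfsf11 signals lay below the median of all probe sets on all 6 arrays.

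Osteoclast genes mark the cells that resorb bone. Of 18 measured, 2 rose and 1 fell, with a median of 0.01, and the list's summed linear signal was 25044 to 25404 on old and 23235 to 25130 on young arrays. Differences were below 0 for 9 of these genes and above 0 for 9. Atp6v0d2, a proton pump subunit of osteoclasts and macrophages, had 6.18, 6.37 and 6.99 on old arrays, against 4.68, 4.89 and 4.77 on young arrays, and rose by 1.73 (limma adjusted p = 0.00303). Its mean signal of 5.65 lay below the median of all probe sets. Averaged over its 2 probe sets, the Atp6v0d2 difference was smaller, 1.19 (limma adjusted p = 0.00950). Acp5, the tartrate-resistant acid phosphatase, had 7.50, 7.06 and 7.19 on old arrays, against 6.01, 6.60 and 6.44 on young arrays. Acp5 rose by 0.90 (limma adjusted p = 0.0232), and did not pass without old array 1, old array 3 or young array 3 (adjusted p of 0.0686, 0.0804 and 0.0812). The signalling adaptor gene Traf6, which lies downstream of RANKL, fell by 0.43 (limma adjusted p = 0.0269, and up to 0.114 on leaving out any array except young array 2). Ctsk, named after its value was seen, had 8.71, 8.84 and 8.65 on old arrays, against 9.24, 9.12 and 8.96 on young arrays. The Ctsk groups did not overlap, and the difference of -0.37 ± 0.10 did not pass (limma adjusted p = 0.0706). The 2 rising genes are also expressed by macrophages, and the part of those cells was not tested.

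Of 19 measured cartilage genes, 2 fell and 0 rose, with a median of -0.13. Col11a1 had 9.03, 9.02 and 8.97 on old arrays, against 10.47, 10.14 and 10.29 on young arrays, and fell by 1.29 (limma adjusted p = 0.000990). Acan, the core protein of aggrecan, fell by 0.86 (limma adjusted p = 0.0371, and 0.0571 to 0.142 on leaving out any array except young array 2). Stria and spiral ligament markers, by comparison, had medians of 0.08 and 0.00. Of these, 0 of 10 stria genes and 0 of 8 ligament genes passed with limma, with 2 and 1 at an unadjusted p under 0.05. With an intensity trend and robust variance in limma, 2 stria genes passed as higher and 1 ligament gene as lower.

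**Figure D5:**
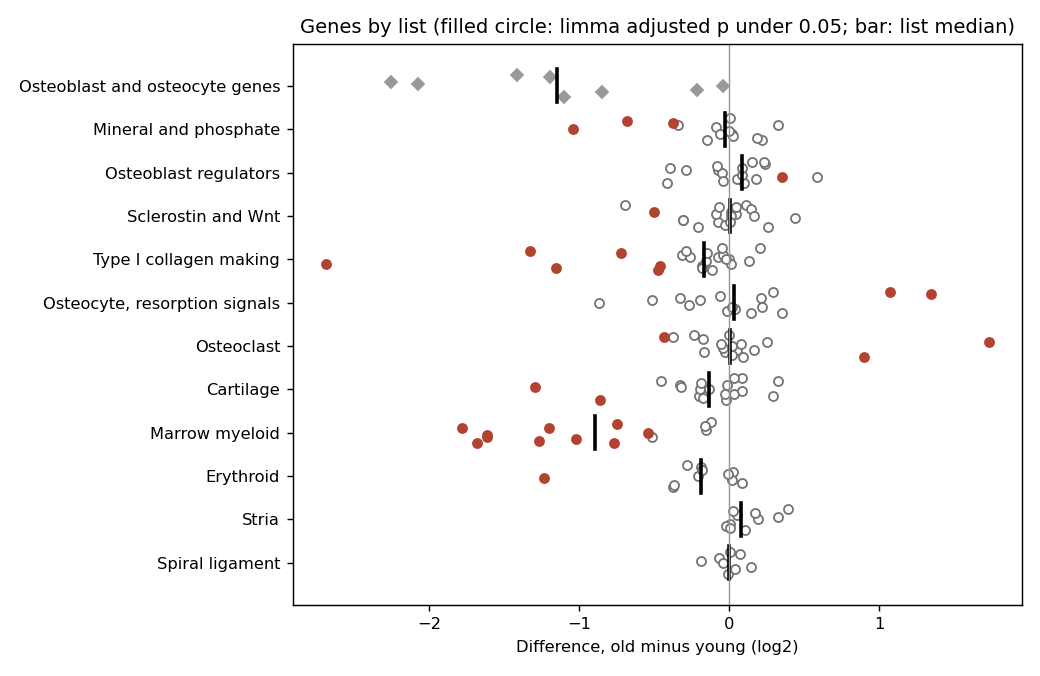
Difference in log2 signal between old and young tissue for each measured gene, by list, with the 8 measured osteoblast and osteocyte genes at the top. Grey diamonds are the osteoblast and osteocyte genes, drawn without a call. In the other lists filled circles passed a limma adjusted p of 0.05 over all probe sets and open circles did not, and the black bar is the list median. Medians are -1.15 for the osteoblast and osteocyte genes and -0.89 for marrow myeloid genes, and lie between -0.19 and 0.09 for the other lists drawn.

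The genes whose pattern over the 6 arrays was most like that of the group were sought among 11581 other genes above the median signal. Likeness was the Pearson correlation with the mean of the standardised values of the 8 genes. It reflects the age difference as well as the order within an age, and genes picked as the highest of many have high values by construction. The 8 highest were Ccnd2 (0.986), Ext1 (0.983), Car15 (0.980), Lmcd1 (0.980), Pde10a (0.980), Camp (0.979), S100a9 (0.978) and S100a8 (0.977). Camp, S100a8 and S100a9 are genes of the marrow myeloid list, and Ext1 encodes an enzyme of heparan sulphate synthesis. S100a9 had 8.14, 8.93 and 7.47 on old arrays, against 9.42, 9.96 and 10.01 on young arrays, with old array 2 highest and young array 1 lowest of their ages. Ccnd2, which encodes a D-type cyclin, had 10.49, 10.68 and 10.43 on old arrays, against 11.10, 11.04 and 11.20 on young arrays.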

How the data were processed

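RNA of microdissected cochlear lateral wall was labelled with a 3′ IVT kit and hybridised to 1-colour Affymetrix arrays, per the labels' protocols. Expression Console, RMA and MAS5 are listed by the submitters' processing notes, with no role or version. The authors deposited log2 values for 45101 probe sets on 6 arrays (2.66 to 14.76, array medians 6.26 to 6.30). RMA brings arrays to a shared distribution, which removes a shift common to most genes. Scanner files were not used here, so neither background nor scan batches could be examined, and 3 arrays per age limit the precision.

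From these values, 64 control probe sets were left out and the other 45037 went into a fit with age as the only term (lmFit and eBayes of limma 3.58.1, under R 4.3.3). P-values were adjusted by Benjamini-Hochberg over all probe sets. Genes were named from GEO's platform annotation (34945 probe sets with 1 symbol, 932 with several, which were not used), and 0 symbols differed from RefSeq. A gene was read by its brightest probe set, which gave 18193 genes. "Passed", "rose" and "fell" mean an adjusted p under 0.05.

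The members and lists were chosen with earlier results of these data known. Named genes were all members, up to 2 called genes per list and direction (or the 1 with the smallest p), and the 8 most alike. The fit was tested on simulated data. Alternatives were further normalization, a signal filter, other variance models, array weights, a replicate block, a stricter threshold, averaging each gene's probe sets and leaving out each array. Promoter motifs were searched in Python 3.11.15.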

Additional observations from a re-analysis of the deposited data

How the results depend on the processing

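Of the 8 measured bone genes, 4 passed with all arrays, beside 2.33% of all genes called lower in old tissue. Leaving out 1 array gave 2 to 6 of the bone genes. Of their probe sets, 7 passed, and leaving out 1 array gave 4 to 9. Over all probe sets 2119 passed, and leaving out 1 array gave 515 to 3393. Over all the other lists, 25 genes fell and 5 rose, and leaving out 1 array gave 9 to 26 falling and 2 to 6 rising. At an adjusted p of 0.01, 436 probe sets, 4 of these genes' probe sets and 2 of the genes passed, with 8 falling and 2 rising in the other lists. With array weights 4480 probe sets passed and 8 genes of the other lists rose, and 3 rose among probe sets above the median signal. In these cases fewer arrays, a stricter threshold, fewer probe sets or unequal weights are part of the setting itself, and no other cause was tested. The Sp7 difference, -0.04, ranged from -0.10 to 0.025 on leaving out 1 array, and was above 0 without old array 3 (0.025) and without young array 3 (0.017). No other difference computed under the alternatives changed sign. With the replicate number as a block, 1932 probe sets and 5 of the bone genes passed. Same-numbered old and young arrays deviated together little (correlations of 0.137, 0.0753 and 0.00782 over probe sets). Old arrays 1 and 2 correlated best with the young array of the same number, and old array 3 with young array 2 (0.0681). The labels name no pairing, and the numbers were not treated as pairs. Signal over background was not examined, which limits dim probe sets such as those of Ifitm5 and the second of Sost.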

Other observations

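Relatives of Smpd3 and Ifitm5 outside bone were measured as well. Of 16 genes of sphingomyelin and ceramide metabolism, 0 passed in either direction with limma (3 at an unadjusted p under 0.05, and 1 higher and 1 lower with array weights), with a median difference of 0.07. The smallest p was that of Smpd2, another neutral sphingomyelinase, with 10.75, 10.57 and 10.54 on old arrays, against 11.05, 10.92 and 10.83 on young arrays. Its groups did not overlap, and its difference was -0.31 ± 0.09 (limma adjusted p = 0.106, and 0.0475 with array weights). The Ifitm family is named for interferon-induced membrane proteins. Of 6 other Ifitm genes, 0 passed with limma (1 at an unadjusted p under 0.05), and the median was 0.01. Among them 1, Ifitm10, passed as lower with array weights, without young array 2, and when dim probe sets were left out. Ifitm10 had the smallest p, at -0.44 ± 0.11 (limma adjusted p = 0.0680, and 0.0251 to 0.217 over the alternatives). Ifitm3 averaged 12.96 ± 0.09 in old and 12.95 ± 0.21 in young tissue (SD, n = 3 each), a difference of 0.01 ± 0.11.

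Of 6 nerve and Schwann cell genes, 1 fell, the myelin protein gene Pmp22, by 0.51 (limma adjusted p = 0.0265). Pmp22 did not pass without any of the old arrays or without young array 1 (adjusted p of 0.0570 to 0.120). Of 5 hair cell genes, 0 passed with limma, with 0 at an unadjusted p under 0.05, and Gfi1 had the smallest p, with a difference of 0.37 ± 0.29 (limma adjusted p = 0.586).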
